A study of Mus musculus with 6 samples.

Results

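Deubiquitinases are proteases that take ubiquitin off proteins, and they fall into classes by the fold of their catalytic domain. Most belong to the ubiquitin-specific proteases (USP), and the others to the ovarian tumour (OTU), ubiquitin C-terminal hydrolase (UCH), Josephin and MINDY classes, all cysteine proteases, and to the JAMM metalloproteases. They edit degradation signals, recycle ubiquitin and tune signalling, among others in the NF-kB, TGF-beta and p53 pathways that act in injured renal tubules. YOD1, the protein raised in these cells, is itself an OTU deubiquitinase that works with the segregase VCP. The genes described here were chosen by symbol from the gene table of the study and had to be annotated as protein coding. The symbols were Usp followed by a digit, Otud, Otub, Otulin, Mindy, Josd, Uchl, Stambp, Vcpip1, Zranb1, Cyld, Bap1, Atxn3, Mysm1 and Brcc3. That gave 83 of the 28789 genes in the table, after 4 noncoding entries and Usp18, which removes the modifier ISG15, were left out. Yod1 itself was not a member.

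The RNA came from TCMK1, a line of mouse renal tubular epithelial cells. There were 3 libraries from cells with YOD1 overexpression and Ang II, and 3 control libraries with Ang II, so angiotensin II, a vasoactive peptide used as a profibrotic stimulus, was common to both groups and no cells without angiotensin II were analysed here. The labels do not state the method of overexpression or what the controls received in its place. The series aimed to find pathways that YOD1 regulates, and its title names the kinase JAK2 as the protein that YOD1 stabilises. Transcript levels do not measure protein stability. The labels leave unsaid whether each library had its own culture, so the p-values refer to the spread among these libraries, and that spread may be technical.

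Levels were deposited as FPKM, fragments scaled by transcript length and by library size, so levels of genes can be compared with each other, while read depth is unknown. The FPKM of a library summed to 326137 to 352209 with YOD1 and to 314172 to 320924 in the controls. Yod1 (ENSMUSG00000046404) stood at 1.73, 7.56 and 1.86 FPKM in YOD1 libraries 1, 2 and 3, against 0.842, 0.757 and 0.684 FPKM in controls 1, 2 and 3. All 3 YOD1 libraries thus lay above all controls, with library 2 far above the others, and Yod1 did not pass the test over all genes (log2 fold change 1.21, SE 0.37, limma adjusted p = 0.141). Leaving out YOD1 library 2 brought its log2 fold change to 0.67. It is not known whether the introduced sequence is counted in these values. Jak2 (ENSMUSG00000024789) had 1.23, 1.301 and 0.890 FPKM with YOD1, against 1.59, 1.16 and 2.39 FPKM in the controls, and the groups overlapped. Of 12 tubular epithelial markers, 11 averaged at least 1 FPKM, the keratin gene Krt18 and the kidney cadherin gene Cdh16 among them, and the phosphate transporter gene Slc34a1 was listed at 0 in all libraries but control 1. The summed FPKM of the 12 tubular markers was 824 to 1082 with YOD1 and 755 to 873 in the controls. Summed markers of fibroblasts (7 genes) reached 10.2 to 17.3 with YOD1 and 15.1 to 18.0 in the controls, and those of endothelium (3 genes) 0.974 to 1.77 with YOD1 and 0.520 to 1.13 in the controls. The leukocyte markers found, 4 of 5, summed to 15.3 to 23.0 FPKM with YOD1 and 5.37 to 14.1 FPKM in the controls. Lyz2 and Csf1r carried these sums, while the general leukocyte gene Ptprc and the T-cell gene Cd3e stayed at or below 0.0708 FPKM. The part of these cells' RNA in the values below was not tested. The 18S rRNA sequence Rn18s-rs5 took 2.17% to 3.90% of the FPKM sum with YOD1 and 0.421% to 0.733% in the controls, and its part in the values below was not tested.

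The gene ontology terms in the deposited table name a deubiquitinase function for 81 of the 83 genes. The exceptions were Usp6nl, which encodes a GTPase-activating protein for Rab proteins and shares only its name with the family, and Otulinl, a relative of the linear-chain deubiquitinase gene Otulin. Of the 83 genes, 53 were of the USP class with Cyld, 14 of the OTU class, 5 of the UCH class with Bap1, 3 of the Josephin class with Atxn3, 4 of the MINDY class and 4 of the JAMM class with Mysm1 and Brcc3. A gene was tested where 3 or more of the 6 libraries reached 1 FPKM, and 65 members passed.

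The level of deubiquitinase transcripts in the tubular cells was dominated by a few genes. The 6 highest held 51.7% of the summed mean FPKM of all 83. Highest was Otub1, an OTU enzyme specific for Lys48-linked chains that also blocks the E2 enzyme UBE2N. It had 122, 124 and 166 FPKM with YOD1, against 116, 151 and 131 FPKM in the controls. These groups overlapped, with a log2 fold change of 0.04 and a 95% interval from -0.32 to 0.40. Next came the Josephin gene Josd1 at 72.6 ± 1.21 FPKM with YOD1 and 80.6 ± 1.17 FPKM in the controls (SD, n = 3 each). Usp5, which takes apart unanchored ubiquitin chains, averaged 79.1 ± 12.4 FPKM with YOD1 and 69.5 ± 13.0 FPKM in the controls. Usp5 and Josd1 stood close enough that their order differed between the groups. Uchl1, best known as an abundant neuronal ubiquitin hydrolase, followed at 60.7 ± 13.0 FPKM with YOD1 and 67.2 ± 7.58 FPKM in the controls. Bap1, the nuclear enzyme that removes ubiquitin from histone H2A, stood at 62.2 ± 1.38 FPKM with YOD1 and 61.2 ± 3.79 FPKM in the controls, and Uchl1 and Bap1 did not differ in level beyond their spread. Usp22, the deubiquitinase of the SAGA coactivator, was sixth at 43.9 ± 5.31 FPKM with YOD1 and 53.03 ± 4.55 FPKM in the controls.

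With these 6 included, 21 tested members averaged at least 10 FPKM, 28 averaged from 2 to under 10 FPKM and 16 averaged under 2 FPKM. The 18 members that were not tested had means of at most 0.837 FPKM, and 6 of them were under 0.1 FPKM. Among the 18 were the histone H2A deubiquitinase gene Mysm1, Brcc3 of the BRCA1-A and BRISC complexes, and Usp15, a regulator of TGF-beta receptors. Brcc3 had 0.806, 0.759 and 0.654 FPKM with YOD1, against 1.19, 0.900 and 0.709 FPKM in the controls, and Usp15 had 0.457, 0.498 and 0.221 FPKM with YOD1, against 0.670, 0.444 and 0.674 FPKM in the controls. Both overlapped between the groups. Mysm1, chosen after its values were seen, had 0.212, 0.337 and 0.157 FPKM with YOD1, against 0.447, 0.438 and 0.462 FPKM in the controls, without overlap and without a test. Also in this set were Usp17la, Usp17lb, Usp17lc and Usp17ld, which lie close in sequence, so that their single values are uncertain. Uchl4, a near copy of Uchl3, had 1.14, 1.16 and 0.907 FPKM with YOD1, against 0.540, 0.365 and 0.799 FPKM in the controls. Its groups did not overlap, but reads of the pair may be split between the copies. Uchl3 itself averaged 4.68 ± 0.812 FPKM with YOD1 and 4.45 ± 0.821 FPKM in the controls (SD, n = 3 each).

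No tested deubiquitinase gene passed the threshold with YOD1 overexpression. Across all genes, 55 of 11483 (0.479%) passed limma's moderated test on log2(FPKM + 1) at an adjusted p of 0.05, and 0 of the 65 tested members did. Of the 55 genes, 51 (0.444%) were higher and 4 (0.0348%) lower. With length and GC trends removed, as described below, the calls were 26 higher and 7 lower. With median-ratio scaling 162 of 171 calls were higher, and without control 3 145 of 242, so that the split changed with that library. The count over all genes was 132 without YOD1 library 3, and 31, 19 and 242 without controls 1, 2 and 3, and the count of members was 0 in each of those fits. The lowest limma adjusted p of a member was 0.153 (Mindy1), and the largest differences were 0.52 upward (Otub2) and -0.55 downward (Usp42) on the log2 scale. The authors' deposited table marks 286 of 28789 genes as significant (0.993%) and 0 of the 83 members. That mark has a log2 fold minimum of 1, while the limma calls have no fold threshold, so the counts are not alike. In the authors' deposited table the lowest q of a member is 0.0660 (Mindy2, log2 fold ratio -0.976), and 16 members have a p under 0.05.

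At an unadjusted p under 0.05 there were 11 members lower (16.9%), against 13.0% of all tested genes, and 2 members higher (3.08%), against 7.87% of all tested genes. With median-ratio scaling the members gave 6 lower and 4 higher, and all genes 857 lower and 1359 higher, against 1494 lower and 904 higher as deposited. The filter was applied again after this scaling, so these 65 members are not the same genes. Mindy2 dropped out and Uchl4 entered, at a log2 fold change of 0.45, as one of the 4 higher. The 11 became 7 without YOD1 library 3, 25 without YOD1 library 2, and 4, 4 and 6 without controls 1, 2 and 3. Of the 65, 19 (29.2%) lay in all YOD1 libraries below all controls, against 19.1% of all tested genes, and 3 (4.62%) lay above, against 9.77%. The median log2 fold change was -0.27 over the members and -0.10 over all tested genes, and 52 of 65 members were below 0, against 63.6% of all tested genes. Mindy2, which is counted in the 11, the 19 and the 52, passed the filter through the controls alone, where it is higher. Of the 65, 16 reached 1 FPKM in all 3 controls but in fewer than 3 YOD1 libraries. With median-ratio scaling the median of the members was -0.16, against -0.01 over all tested genes, and 45 of 65 were below 0, against 51.0%. Over all 83, with no filter, the median was -0.18, against -0.01 over all 28789 genes, of which only 11483 passed the filter. These sets are therefore unlike in level. At a filter of 5 FPKM the median was -0.095 over 33 members and -0.070 over 7061 genes. Below 0 were then 66.7% of the members and 59.2% of all genes.

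**Figure D1:**
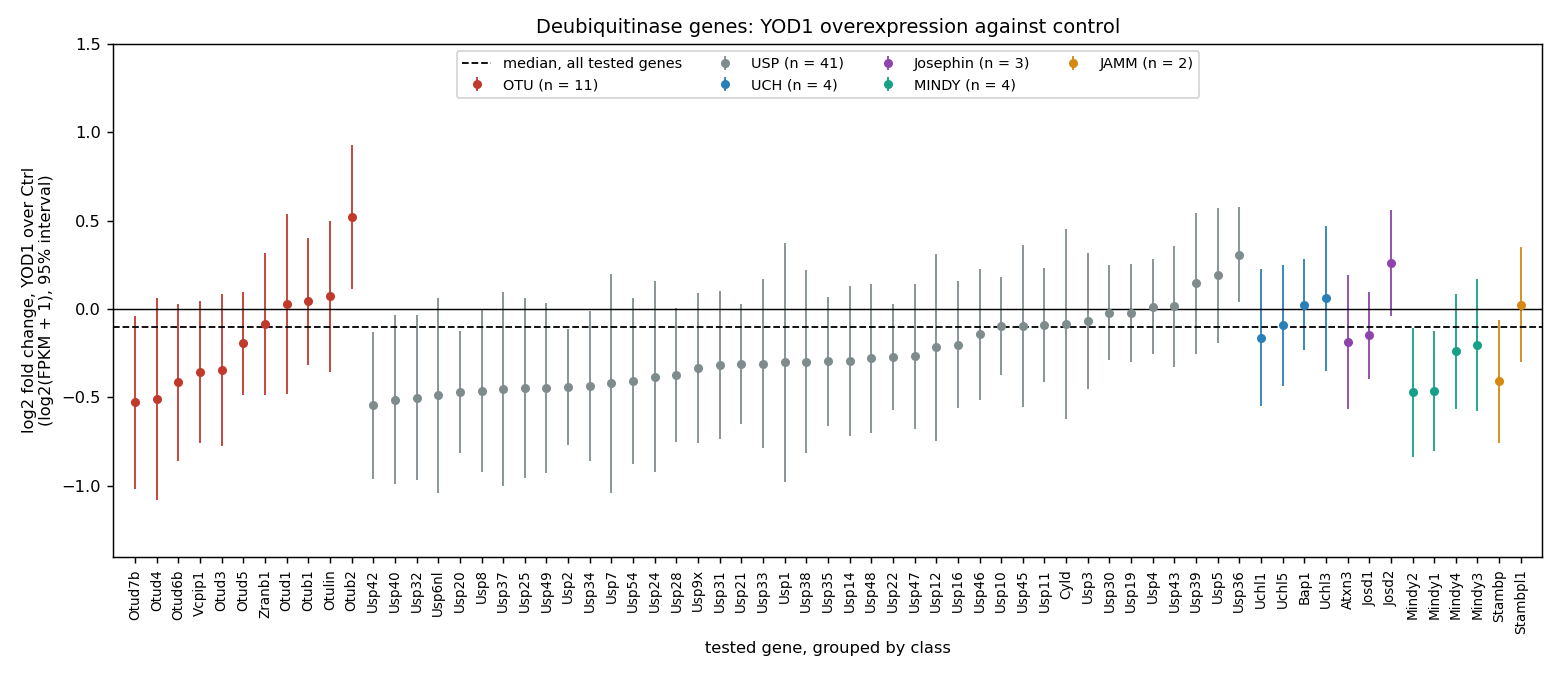
Log2 fold change of YOD1 over Ctrl on the log2(FPKM + 1) scale (vertical axis) for the 65 tested deubiquitinase genes (horizontal axis), grouped by class and ordered within it. Points are limma estimates, bars 95% intervals, and the dashed line is the median of all tested genes (-0.10). The highest point is Otub2 at 0.52 and the lowest Usp42 at -0.55.

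The OTU class, to which YOD1 belongs, had log2 fold changes on both sides of 0, as had every other class but MINDY. Of its 14 members 11 were tested, 7 with a log2 fold change below 0 and 4 above, and the median was -0.19. The share below 0 was 63.6%, against 63.6% of all tested genes. Of the 54 tested members of the other classes, 45 were below 0 (83.3%), with a median of -0.27. The classes were compared by these counts and medians alone, and no test of the difference between them was made. The longest annotated transcript had a median of 3266 bp in the tested OTU genes and 4655.5 bp in the others. Medians with length and GC trends removed are given below. Without YOD1 library 3 the medians stood at -0.17 for the OTU class and -0.11 for the others, so that their order turned. It also turned without control 3, with -0.27 for the OTU class and -0.23 for the others. With median-ratio scaling the medians were -0.09 and -0.17, and at 5 FPKM the OTU median was 0.03.

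Otub2, the paralogue of Otub1, was the member with the largest difference upward. It stood at 12.2, 14.5 and 11.8 FPKM in the YOD1 libraries, against 8.47, 6.77 and 11.01 FPKM in the controls. The groups did not overlap, though YOD1 library 3 and control 3 lay close together. The difference on the log2 scale was 0.52 (SE 0.18, limma adjusted p = 0.169), and it stayed between 0.37 and 0.68 when 1 library was left out. Otub2 was thus about an order of magnitude less abundant than Otub1 in both groups, with 12.8 ± 1.48 FPKM with YOD1 and 8.75 ± 2.13 FPKM in the controls (SD, n = 3 each).

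Otud7b, also called Cezanne, which cleaves Lys11-linked chains and restrains NF-kB signalling, lay at the other end of the class. Its values were 7.70, 7.91 and 4.11 FPKM with YOD1, against 10.3, 9.49 and 8.97 FPKM in the controls. All YOD1 libraries were below all controls and library 3 was lowest by far (log2 fold change -0.53, SE 0.22, limma adjusted p = 0.216). It was -0.27 once that library was left out. Its paralogue Otud7a was not tested, at 0.308 ± 0.0569 FPKM with YOD1 and 0.223 ± 0.0254 FPKM in the controls, without overlap.

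Otud4, linked to repair of alkylated DNA, had 2.94, 4.58 and 1.53 FPKM with YOD1, against 4.50, 4.41 and 4.37 FPKM in the controls. YOD1 library 2 exceeded every control while library 3 lay far below them, so the groups overlapped. Otud6b had 3.66, 3.27 and 1.92 FPKM with YOD1, against 4.62, 3.88 and 4.02 FPKM in the controls, without overlap (log2 fold change -0.42, SE 0.20, limma adjusted p = 0.263). Vcpip1, a VCP partner in Golgi reassembly, had 1.79, 1.93 and 1.07 FPKM with YOD1, against 2.68, 2.00 and 2.21 FPKM in the controls, also without overlap. In both genes YOD1 library 3 was again the lowest of the 6, and without it the log2 fold changes were -0.21 for Otud6b and -0.20 for Vcpip1, in place of -0.42 and -0.35.

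The remaining OTU genes lay close to the controls or scattered. Otulin, which is specific for the linear chains made by LUBAC in NF-kB signalling, had 17.4, 13.2 and 12.7 FPKM with YOD1, against 17.7, 11.7 and 12.05 FPKM in the controls, and a log2 fold change of 0.07 with a 95% interval from -0.35 to 0.50. Otud1 had a log2 fold change of 0.03 (95% interval -0.48 to 0.54), and both genes changed sign when single libraries were left out. Otud5, also called DUBA, which restrains type I interferon induction through TRAF3, averaged 16.7 ± 0.818 FPKM with YOD1 and 19.3 ± 1.92 FPKM in the controls (SD, n = 3 each). Otud3 averaged 7.70 ± 0.354 FPKM with YOD1 and 10.3 ± 2.71 FPKM in the controls, where control 3 at 7.22 FPKM lay below all YOD1 libraries. Zranb1, also called Trabid, which cleaves Lys29- and Lys33-linked chains, averaged 1.44 ± 0.409 FPKM with YOD1 and 1.58 ± 0.326 FPKM in the controls. None of these passed the test, with adjusted p from 0.314 to 0.950 in limma.

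**Figure D2:**
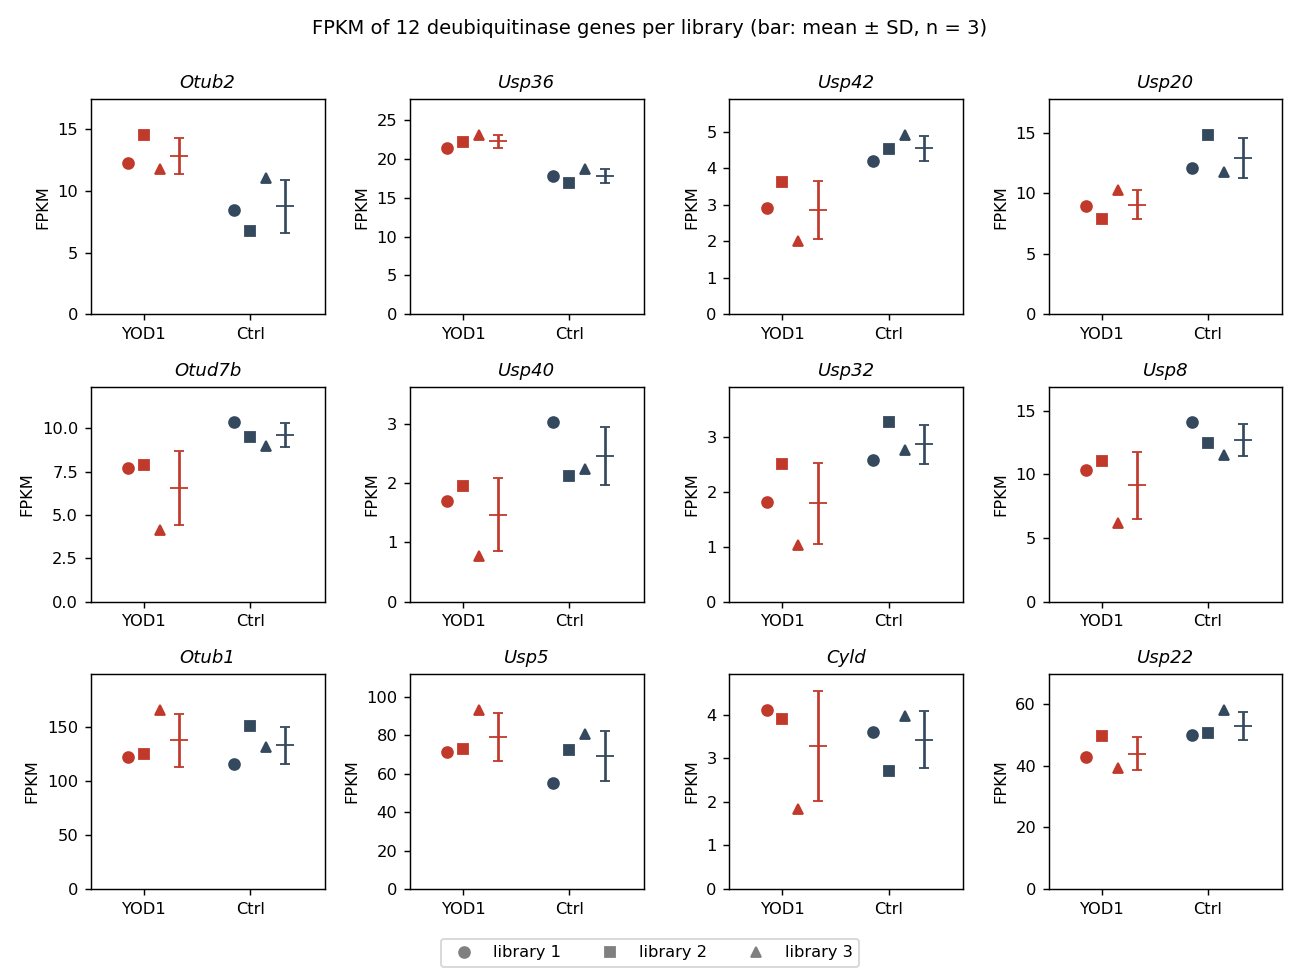
FPKM (vertical axes, from 0) of 12 deubiquitinase genes in the YOD1 and Ctrl libraries. Circles, squares and triangles are libraries 1, 2 and 3 of each group, and bars beside them give the mean and SD (n = 3). Otub2 and Usp36 are higher in all YOD1 libraries, and for Usp42, Otud7b, Usp40, Usp32, Usp8, Cyld and Usp22 the YOD1 triangle is the lowest point.

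Among the tested USP genes, Usp36 was the only one with all YOD1 libraries above all controls. This nucleolar deubiquitinase had 21.4, 22.2 and 23.1 FPKM with YOD1, against 17.8, 16.9 and 18.7 FPKM in the controls. The groups were tight and did not overlap (log2 fold change 0.31, SE 0.12, limma adjusted p = 0.201), and with any 1 library left out the value was 0.27 to 0.34. Its paralogue Usp42 had 2.92, 3.61 and 2.02 FPKM with YOD1, against 4.204, 4.51 and 4.90 FPKM in the controls. These groups did not overlap either, in the other direction (log2 fold change -0.55, SE 0.19, limma adjusted p = 0.164). With any 1 library left out the value of Usp42 was -0.69 to -0.38, and it was -0.38 without YOD1 library 3. The pair was set side by side after its values were seen, and the difference between the paralogues was not tested.

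Usp20, a deubiquitinase of HIF-1alpha and of beta-adrenergic receptors, had 8.96, 7.88 and 10.3 FPKM with YOD1, against 12.1, 14.8 and 11.7 FPKM in the controls. It was lower in all 3 YOD1 libraries, and here library 3 was the nearest to the controls (log2 fold change -0.47, SE 0.15, limma adjusted p = 0.155). Usp8, which acts on endosomes and sorts the EGF receptor, had 10.3, 11.03 and 6.15 FPKM with YOD1, against 14.1, 12.5 and 11.6 FPKM in the controls. Stambp, the JAMM enzyme that shares its endosomal ESCRT partners with Usp8, had 2.24, 3.03 and 2.62 FPKM with YOD1, against 4.08, 3.80 and 3.53 FPKM in the controls. Neither gene overlapped between the groups (limma adjusted p = 0.238 for Usp8 and 0.192 for Stambp). With YOD1 library 3 left out, Usp8 stood at -0.23 in place of -0.46 on the log2 scale, while Stambp stood at -0.41 both ways. After length and GC trends were removed, as described below, Stambp stood at -0.10 (limma adjusted p = 0.737).

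Usp32, a membrane-anchored deubiquitinase, had 1.82, 2.52 and 1.04 FPKM with YOD1, against 2.59, 3.27 and 2.76 FPKM in the controls. Usp40 had 1.69, 1.94 and 0.768 FPKM with YOD1, against 3.02, 2.12 and 2.23 FPKM in the controls. Both were lower in all YOD1 libraries, with library 3 below the other libraries (log2 fold changes -0.50 and -0.51, limma adjusted p = 0.218 and 0.219), and both were at -0.29 without it. Usp6nl, not a deubiquitinase, had 5.68, 6.63 and 2.83 FPKM with YOD1, against 6.71, 6.63 and 8.13 FPKM in the controls, where YOD1 library 2 was level with control 2. Usp2, chosen after its values were seen, averaged 0.888 ± 0.205 FPKM with YOD1 and 1.56 ± 0.114 FPKM in the controls (SD, n = 3 each). Its groups did not overlap and its log2 fold change was -0.44 (limma adjusted p = 0.156).

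The MINDY enzymes trim long Lys48-linked chains. Mindy2 had 0.811, 0.752 and 0.379 FPKM with YOD1, against 1.35, 1.46 and 1.01 FPKM in the controls. It was tested only because the controls, where it is higher, passed the filter, so its values are a description. With length and GC trends removed its log2 fold change was -0.13, against -0.47 as deposited. Mindy1, chosen after its values were seen, had 8.48, 7.35 and 6.43 FPKM with YOD1, against 11.3, 10.9 and 9.57 FPKM in the controls. Its groups did not overlap (log2 fold change -0.46, SE 0.15), yet it too missed the threshold. In the Josephin class Josd2 stood at 15.4, 15.3 and 18.7 FPKM with YOD1, against 13.5, 13.2 and 13.8 FPKM in the controls, while Josd1, given above, was lower in all YOD1 libraries. The log2 fold changes were 0.26 for Josd2 (SE 0.13, limma adjusted p = 0.286) and -0.15 for Josd1 (SE 0.11, limma adjusted p = 0.439). Josd2 was at 0.17 without YOD1 library 3, and Josd1 at -0.04 with median-ratio scaling and -0.05 with length and GC trends removed.

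Cyld, which removes Lys63-linked and linear chains from NF-kB regulators, had 4.11, 3.90 and 1.84 FPKM with YOD1, against 3.60, 2.70 and 3.96 FPKM in the controls. The groups overlapped, with a log2 fold change of -0.08 (95% interval -0.62 to 0.46). Its sign turned without YOD1 library 3 (0.19), without control 3 (0.0049) and with length and GC trends removed (0.25). Usp4 and Usp11, which act on the TGF-beta type I receptor, had log2 fold changes of 0.01 (95% interval -0.26 to 0.28) and -0.09 (95% interval -0.41 to 0.23). Uchl5, a proteasome-bound deubiquitinase that also binds Smad proteins, had -0.09 (95% interval -0.43 to 0.25).

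Usp7, which controls MDM2 and p53, had 8.89, 11.2 and 4.24 FPKM with YOD1, against 10.98, 9.33 and 11.3 FPKM in the controls. Its log2 fold change was -0.42 with all libraries and -0.06 without YOD1 library 3. Usp9x, a regulator of Smad4, had 1.17, 1.52 and 0.552 FPKM with YOD1, against 1.46, 1.59 and 1.66 FPKM in the controls. Atxn3, the polyglutamine protein of spinocerebellar ataxia and a VCP partner, had 1.36, 1.54 and 0.912 FPKM with YOD1, against 1.84, 1.65 and 1.24 FPKM in the controls. In all 3 genes the groups overlapped and library 3 held the lowest of the 6 values. Usp22 was lower in all YOD1 libraries, while Bap1 overlapped. For Usp22 and Bap1 the log2 fold changes were -0.27 (95% interval -0.57 to 0.03) and 0.03 (95% interval -0.23 to 0.28).

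YOD1 library 3 was the lowest library for most of the family. In 43 of the 65 tested members (66.2%) it held the lowest value of the 6 libraries, against 42.5% of all tested genes. It lay below all 3 controls for 48 members, while library 1 did for 39 and library 2 for 24. At least 1 FPKM was reached by 63, 65 and 49 of the 83 members in YOD1 libraries 1, 2 and 3, against 66, 65 and 66 in the controls. Over all tested genes the shares below all controls were 50.8% for library 3, 38.8% for library 1 and 33.8% for library 2. The median difference from the control mean, on the log2(FPKM + 1) scale, was -0.21, -0.04 and -0.42 for the members in YOD1 libraries 1, 2 and 3, and -0.06, -0.04 and -0.18 over all tested genes. By this median library 2 lay nearest to the controls, in the members and also over all tested genes. Any relation to the Yod1 level of the libraries was not tested. Without YOD1 library 3 the median log2 fold change of the members was -0.12, against -0.05 over all tested genes.

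**Figure D3:**
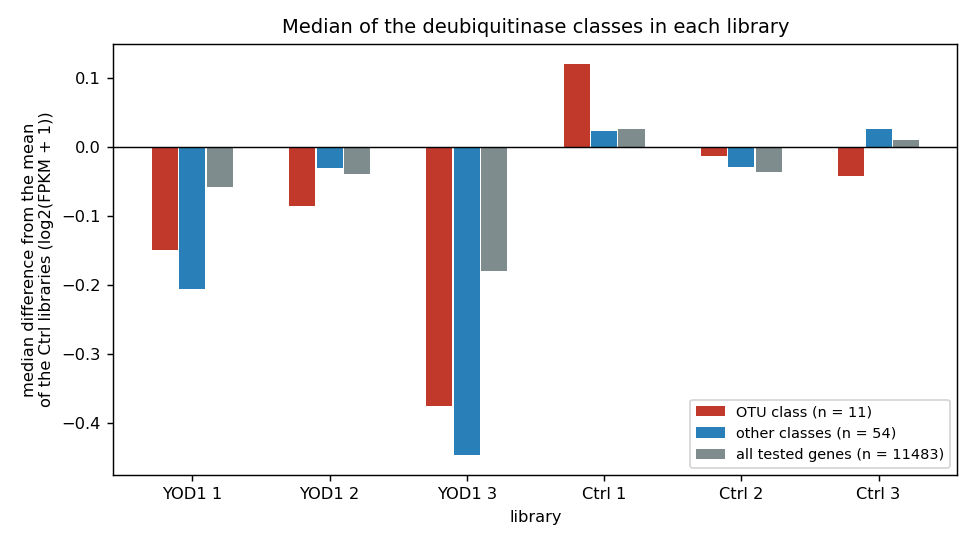
Median difference from the mean of the Ctrl libraries on the log2(FPKM + 1) scale (vertical axis) in each of the 6 libraries (horizontal axis), for the 11 tested OTU genes, the 54 tested genes of other classes and all tested genes. YOD1 library 3 is the lowest for all of these sets, and YOD1 library 2 lies at -0.09, -0.03 and -0.04.

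The members also had long transcripts, and log2 fold changes were lower in longer ones. The longest annotated transcript of a tested member had a median of 4462 bp, against 3018.5 bp over the tested genes with a length. Among the 65 members the Spearman correlation of log2 fold change and length was -0.51, and across 11386 genes it was -0.40, where all genes share the same 6 libraries and are not independent. In the 22 shortest members, up to 3867 bp, the median log2 fold change was -0.09 and 12 of them were below 0. It was -0.27 in the 21 of middle length and -0.39 in the 22 longest, from 5151 to 12200 bp, where 21 were below 0. All tested genes in the length range of the longest members had a median of -0.27. In the longest members the median difference from the controls was -0.26, -0.04 and -0.72 in YOD1 libraries 1, 2 and 3.

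Length and level cannot be separated here by the members alone, since longer members also had lower FPKM, with a Spearman correlation of -0.55 over the 65. When trends of transcript length and GC content were removed from each library, the median of the members was -0.06, against -0.02 over all tested genes. The members below 0 were then 38 of 65, the OTU median was 0.00061 and that of the other classes -0.06. Usp36 then had a log2 fold change of 0.51 with limma adjusted p = 0.0733, Otub2 of 0.60 with limma adjusted p = 0.1005, and Mindy1 of -0.37. Several lower genes came closer to 0 by more than 1.5 times, to -0.26 for Otud7b, -0.18 for Otud4, -0.24 for Otud6b, -0.18 for Usp32, -0.27 for Usp40, -0.36 for Usp42, -0.26 for Usp8, -0.29 for Usp20, -0.20 for Usp6nl, -0.18 for Usp7 and -0.12 for Usp22. The log2 fold changes of Cyld, Atxn3, Zranb1, Usp11, Usp9x and Vcpip1 changed sign under this correction, to 0.25, 0.10, 0.18, 0.05, 0.04 and 0.00061. Otud3 and Uchl1, also lower as deposited, moved away from 0, to -0.43 and -0.26 in place of -0.35 and -0.16.

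**Figure D4:**
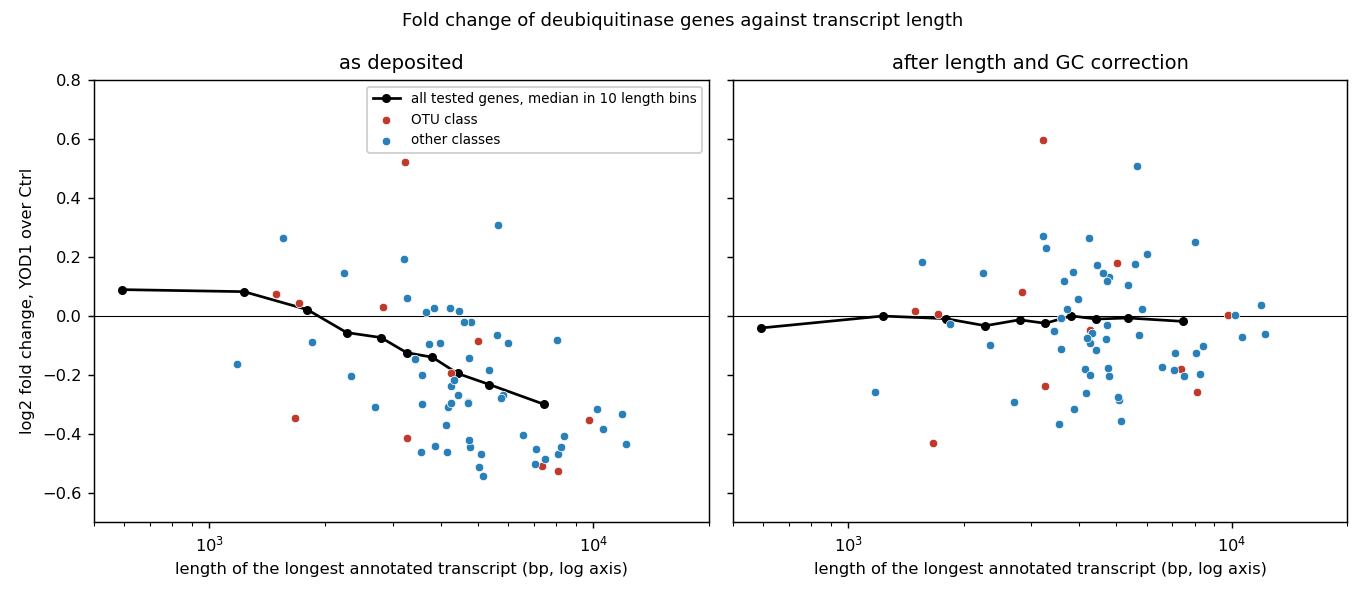
Log2 fold change of YOD1 over Ctrl (vertical axis) against the length of the longest annotated transcript (horizontal log axis, bp), as deposited (left) and after removal of length and GC trends (right). Coloured points are the tested deubiquitinase genes and the black line joins medians of all tested genes in 10 length bins. The line descends to -0.30 in the longest bin on the left and lies between -0.04 and -0.00068 on the right.

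Summed, the FPKM of the 83 genes made up 0.254%, 0.266% and 0.247% of the library totals with YOD1, against 0.276%, 0.294% and 0.295% in the controls. The groups did not overlap, but with Rn18s-rs5 left out of the totals YOD1 library 2 stood at 0.277%, next to control 1 at 0.278%. In bulk RNA, fewer cells that express a gene and less RNA per cell cannot be told apart.

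The rest of the ubiquitin system gave 0 calls in the lists examined. Beside the 63.6% of all tested genes below 0 and their median of -0.10, each list is given by its count, its median and both again after length and GC correction. A list of 10 tested genes outside the symbols above held Yod1, the NF-kB regulator gene Tnfaip3 and relatives by domain, some of which act on other substrates, such as the NEDD8 protease gene Cops5, the SUMO protease gene Uspl1 and the deadenylase gene Pan2. Of these 10, 6 were below 0 with a median of -0.02, and 1 with a median of 0.05 after the correction. In the same list Psmd14, the deubiquitinase of the proteasome lid, averaged 32.7 FPKM with YOD1 and 32.8 FPKM in the controls. Ubb, which encodes ubiquitin, averaged 826 FPKM with YOD1 and 944 FPKM in the controls, with overlap.

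Of 32 tested E2 conjugating enzymes 0 passed, 23 were below 0 and the median was -0.14, but after the correction 16 were below 0 and the median was -0.00035. Ube2n, the E2 that OTUB1 inhibits, averaged 6.95 FPKM with YOD1 and 11.1 FPKM in the controls (log2 fold change -0.61, limma adjusted p = 0.1002). Of 8 tested E1 enzymes 7 were below 0 with a median of -0.24, after the correction 5 with a median of -0.17, and without YOD1 library 3 6 with a median of -0.11. The exception as deposited was Uba7, the E1 of ISG15, at 1.92 FPKM with YOD1 and 0.922 FPKM in the controls. The 7 tested proteases of SUMO and NEDD8 were below 0 with a median of -0.32, and none passed. After the correction 6 were below 0 with a median of -0.09, and without YOD1 library 3 6 with a median of -0.15. Of 27 tested partners of deubiquitinases 20 were below 0 with a median of -0.19, after the correction 16 with a median of -0.03, and without YOD1 library 3 19 with a median of -0.09. The median of the E2 enzymes without that library was -0.06. Vcp, the segregase with which YOD1 works, averaged 31.1 FPKM with YOD1 and 45.5 FPKM in the controls (log2 fold change -0.54, limma adjusted p = 0.140).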

How the data were processed

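Poly(A) RNA was sequenced in read pairs, per the labels' protocols. For every gene the deposited table gives the FPKM of each library. It also gives the authors' fold ratio (YOD1 over Ctrl, equal to the ratio of group means), its log2, a p-value and a q-value, per the file headers. Tools named in the submitters' processing notes are Bowtie 0.12.2, HISAT2 2.0 and StringTie 1.3.0, and the build named there is mm8, without roles. Apart from the log2 fold minimum of 1, how the authors tested is unknown. Strand is not stated, so overlapping and antisense genes may share reads. The table holds no counts, so the count tests listed as alternatives were not run. Read depth is unknown, so no counting intervals are given.

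Values were taken as log2(FPKM + 1). Tested were the 11483 of 28789 genes that reached 1 FPKM in 3 or more of 6 libraries. YOD1 was compared with Ctrl by limma 3.58.1 in R 4.3.3 (trended moderated variances, two-sided p, Benjamini-Hochberg adjustment across the tested genes, threshold 0.05). Fold changes understate those of low genes. The smallest p of an exact permutation of 3 against 3 libraries is 0.1, so none was made. The fit was tested on simulated data. Transcript lengths and GC came from GENCODE M21 by transcript identifier, 99.2% of tested genes and all 83 members, and were removed from each library by splines with 4 degrees of freedom. That annotation belongs to another build, so no coordinates are given.

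Members, classes and lists were chosen with earlier results of these data known. Named were members past the threshold, the 8 of largest change per direction without overlap, the 6 of highest level, all tested OTU genes, 14 genes of known roles, Yod1 and Jak2. Only 3 members qualified upward. Mindy1, Usp2, Mysm1, Otud7a, Uchl3, Uchl4 and the single genes of the other lists were chosen after their values were seen. Plots used Python 3.11.15 and matplotlib 3.10.9.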

Additional observations from a re-analysis of the deposited data

How the results depend on the processing

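The 0 calls among the members held under no filter, a filter at 5 FPKM, a pseudocount of 0.1, median-ratio scaling, length and GC correction, the replicate block and each library left out. The calls over all genes were 0 without a filter, 171 with median-ratio scaling and 33 after length and GC correction (26 higher and 7 lower, against 51 and 4), and 19 to 242 with 1 library left out. Members lower at an unadjusted p under 0.05, a count added after seeing the data, were 4 at 5 FPKM, 6 with median-ratio scaling, 5 after length and GC correction and 4 to 25 with 1 library left out. The median of all members was -0.095 at 5 FPKM, -0.060 after length and GC correction and -0.33 to -0.12 with 1 library left out. With median-ratio scaling, where Uchl4 took the place of Mindy2, it was -0.16, for the OTU class -0.089 and for the other classes -0.17. For the OTU class it was -0.054 without a filter, 0.029 at 5 FPKM, 0.00061 after length and GC correction and -0.27 to -0.17 with 1 library left out. For the other classes it was -0.12 at 5 FPKM, -0.064 after length and GC correction and -0.36 to -0.11 with 1 library left out. Without Usp6nl and Otulinl, a setting added after seeing the data, the median of the members was -0.27.

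Of the 33 named members with Yod1 and Jak2, 22 genes kept 1 sign under the alternatives run and 13 did not. Length and GC correction turned Atxn3 (0.10), Cyld (0.25), Usp11 (0.055), Usp9x (0.037), Vcpip1 (0.00061) and Zranb1 (0.18). Median-ratio scaling turned Uchl5 (0.012) and Usp11 (0.0038). With 1 library left out the sign varied for Bap1 (-0.020 to 0.068), Cyld (-0.24 to 0.19), Otub1 (-0.10 to 0.14), Otud1 (-0.14 to 0.23), Otulin (-0.061 to 0.25), Uchl1 (-0.29 to 0.021), Uchl5 (-0.20 to 0.020), Usp4 (-0.023 to 0.042) and Zranb1 (-0.19 to 0.061). The cause was not tested. The replicate numbers did not pair the samples (correlations of same-numbered deviations 0.30, -0.12 and -0.11), and the replicate block gave 41 calls over all genes and 0 among the members. Not every sample correlated best with its own number: YOD1 libraries 2 and 3 did so with controls 3 and 2. The planned count-based tests were not run, since the table holds FPKM. Depth is unknown, so what it limits in low members cannot be stated.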
